A study of Mus musculus with 12 samples.

Results

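Asb2, Aqp1, Dmpk, Pigr, Sectm1a, Add2, Dmp1 and Ptprz1 are 8 protein-coding genes of the mouse that stood far below control in 4T1 cells carrying either of 2 guides against Cebpd after interferon gamma (IFN-gamma). They were picked from the count table by name for that difference, so 8 of its 16283 genes are described here. All 8 were among the 13601 genes that had enough reads to be tested. The difference between guide and control cells in IFN-gamma chose the genes, and it is therefore given as a description without a test. The question asked of the 8 genes was which of them IFN-gamma raises in control cells and which it does not.

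4T1 cells come from a mammary carcinoma of a BALB/c mouse and stand for triple-negative breast cancer in the series. RNA was sequenced from 3 cell lines that differ in their CRISPR guide, namely Cebpd sgRNA1, Cebpd sgRNA2 and, as control, a guide to Rosa26, a locus commonly taken as a neutral target. Each line was sampled after IFN-gamma at 20 ng/ml for 24 hours and after vehicle. This gave 6 groups of 2 libraries, in the order sgRNA1, sgRNA2 and control with IFN-gamma, and sgRNA1, sgRNA2 and control with vehicle. The genotype label of the guide lines is Cebpd knockout. The sources used here do not give where the guides cut, whether a line is 1 clone or a pool, or whether replicate libraries are separate cultures. The p-values below thus rest on the spread between replicate libraries, and that spread may be technical only.

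C/EBPδ, the product of Cebpd, is a leucine zipper transcription factor that inflammatory cytokines induce and that binds DNA as a dimer, also with other C/EBP proteins. IFN-gamma binds its receptor and activates the kinases JAK1 and JAK2, and the early response runs through gamma-activated sites (GAS) in target promoters. Among the early targets is Irf1, which encodes a factor that binds interferon response elements and carries a later wave of the response.

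Total counts lay between 16912710 and 24784371 per library. Levels are given in CPM, counts divided by the scaled library size, as mean ± SD of n = 2 libraries. Cebpd mRNA was present in all 12 libraries. After IFN-gamma it stood at 45.7 ± 0.211 CPM with sgRNA1, 29.8 ± 0.591 CPM with sgRNA2 and 51.3 ± 3.07 CPM in control. In vehicle it stood at 13.5 ± 0.172 CPM with sgRNA1, 9.54 ± 1.46 CPM with sgRNA2 and 8.11 ± 1.39 CPM in control. In vehicle it was higher than control with sgRNA1 (log2 fold change 0.74 ± 0.12, edgeR adjusted p = 5.53e-05) and not called with sgRNA2 (0.24 ± 0.13, adjusted p = 0.101). After IFN-gamma it was not called with sgRNA1 (-0.17 ± 0.08, adjusted p = 0.0917) and lower with sgRNA2 (-0.78 ± 0.09, adjusted p = 3.03e-07). An mRNA level cannot show whether a small edit was made, so the lines are named as labelled. The 6 epithelial markers summed to 2500 to 2510 CPM with sgRNA1, 2950 to 3170 CPM with sgRNA2 and 3830 to 3880 CPM in control after IFN-gamma, and to between 3600 and 3850 CPM in all vehicle libraries. Their sum was thus lowest in the guide libraries with IFN-gamma, on which the 8 genes were chosen as low against control. In the guide vehicle libraries, where the sum was higher, mean levels of Sectm1a, Pigr and Ptprz1 were lower still, and those of the other genes were higher. Sectm1a and Pigr were near 0 in control vehicle libraries as well, and Ptprz1 had few counts in guide cells with either treatment. Nothing is therefore read from that comparison. Of the other markers listed, 2 of 6 for fibroblasts, 3 of 6 for leukocytes, 1 of 4 for glia, 3 of 4 for endothelium and 1 of 4 for erythroid cells gave values. Sums of fibroblast (14 to 32.2 CPM), leukocyte (0.617 to 9.58 CPM) and glial markers (0.199 to 2.49 CPM) were each highest with sgRNA2 in vehicle. Endothelial and erythroid markers reached at most 1.27 and 0.363 CPM. The part of these markers in the results was not tested.

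In control cells, 4 of the 8 genes were induced by IFN-gamma and 4 were not. A gene was sorted as induced where edgeR's quasi-likelihood test gave an adjusted p below 0.05 in control, the log2 fold change was at least 1 and both IFN-gamma libraries lay above both vehicle libraries. Over all tested genes, 12.3% met that rule. Sectm1a, Pigr, Asb2 and Ptprz1 met it. Aqp1, Dmpk and Add2 were not called in either direction, and Dmp1 was lower after IFN-gamma, as were 34.1% of all tested genes. The control libraries with IFN-gamma also entered the choice of the genes, so the sorting is not independent of that choice. In such bulk samples, fewer cells that express a gene and less RNA of it per cell cannot be told apart.

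**Figure D1:**
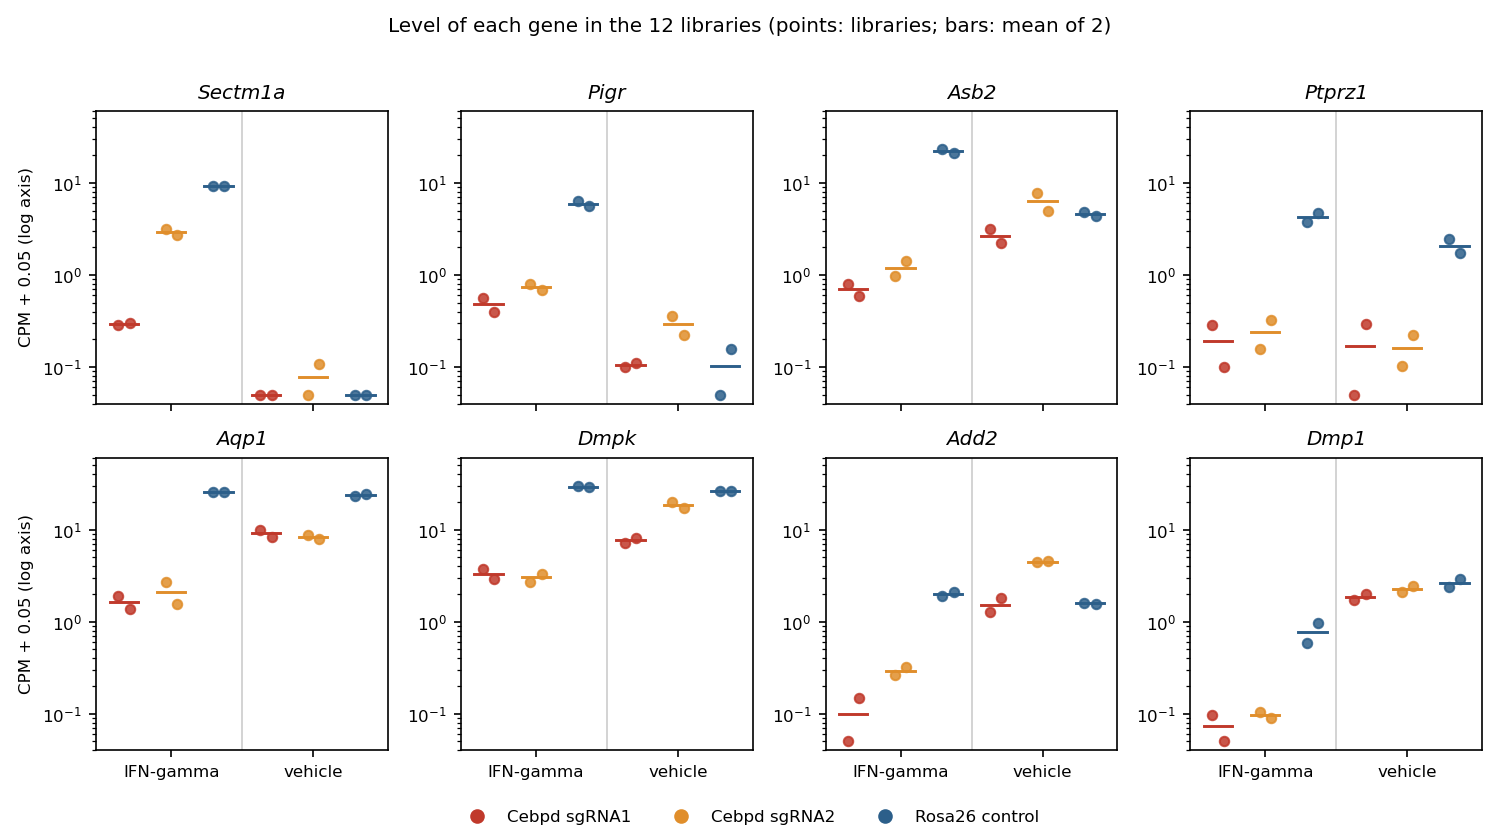
Level of each gene in the 12 libraries, as CPM + 0.05 on a log axis, with IFN-gamma left and vehicle right of the line in each panel; points are libraries and bars are means of 2. The upper row holds the 4 genes that IFN-gamma induced in control and the lower row the 4 it did not, and in every panel the 4 guide libraries with IFN-gamma lie below both control libraries with IFN-gamma.

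Sectm1a encodes a secreted and transmembrane protein whose human relative SECTM1 binds CD7 on T cells. The gene lies on the minus strand at chr11:121067407-121081220 (GRCm38, the assembly also called mm10). After IFN-gamma it had 5 and 5 counts with sgRNA1, 58 and 68 counts with sgRNA2, and 188 and 179 counts in control. In vehicle it had no count with sgRNA1, 0 and 1 count with sgRNA2 and no count in control. Control libraries had counts of the gene only after IFN-gamma, and the guide libraries lay below them. Against a floor of 3 counts per library, the level after IFN-gamma was at least 1.45-fold higher than in vehicle with sgRNA1. The same response was a ratio of 105 with sgRNA2 (95% counting interval 18.6 to 4200), and in control, at 9.14 ± 0.0784 CPM after IFN-gamma, it was at least 58.6-fold. With 0 or 1 count in vehicle, these folds do not rank the lines. Of the 8 genes, Sectm1a was the one whose level differed most between the guides after IFN-gamma, with 0.241 ± 0.01 CPM in sgRNA1 cells and 2.89 ± 0.315 CPM in sgRNA2 cells, both under the control level. The ratio of sgRNA2 over sgRNA1 was 11.8 (95% counting interval 6.23 to 25.3). Sectm1b, a near copy of Sectm1a, lies 3838 bases from it, so reads that fit both genes could have been split between them.

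Pigr encodes the polymeric immunoglobulin receptor, which carries dimeric IgA and pentameric IgM across epithelia, and lies on the plus strand at chr1:130826684-130852249. After IFN-gamma it had 11 and 7 counts with sgRNA1, 14 and 16 with sgRNA2, and 129 and 108 in control. In vehicle the counts were 1 and 1 with sgRNA1, 6 and 3 with sgRNA2, and 0 and 2 in control. Only the control libraries with IFN-gamma were high. The ratio of IFN-gamma over vehicle was 7.91 with sgRNA1 (95% counting interval 1.89 to 70.3), 2.79 with sgRNA2 (1.29 to 6.68) and 113 in control (31.1 to 942). Guide cells with IFN-gamma thus had more Pigr counts than their own vehicle libraries, but fewer than control with IFN-gamma, with log2 fold changes of -3.75 (sgRNA1) and -3.10 (sgRNA2).

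The annotated start of Pigr is shown because 2 of the motifs searched lie just behind it. The motifs were C/EBP (TTGCNNAA), a composite C/EBP and ATF site (TGATGCAA), GAS (TTCNNNGAA), a core of IRF binding (AANNGAAA) and the interferon-stimulated response element (GAAA, any 2 bases, GAAA), each on both strands in windows from 250 bases before to 50 bases after RefSeq starts. An interferon-stimulated response element holds the IRF core by its letters, so those motifs overlap. The sequences are from RefSeq on GRCm38.p6. The first stretch is the promoter at chr1:130826434-130826683, plus strand, which held none of the motifs, and the others are chr1:130826680-130826709 and chr1:130826713-130826733. Capitals mark the match.
Pigr promoter: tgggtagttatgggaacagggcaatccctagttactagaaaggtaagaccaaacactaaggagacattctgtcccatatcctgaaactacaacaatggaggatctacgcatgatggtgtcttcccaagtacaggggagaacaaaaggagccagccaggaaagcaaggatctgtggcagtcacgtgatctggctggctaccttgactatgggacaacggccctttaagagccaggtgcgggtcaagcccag
Pigr IRF core, 8 bases after the start: ccagaaaacagTTTCAGTTttgacaatagt
Pigr GAS, 40 bases after the start: cagtagtgccTTCCTGGAAgc
Over all 32851 RefSeq windows of that length, 23.9% held the IRF core and 8.3% the GAS letters. A match is a description and not a binding site.

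Asb2 encodes an ankyrin repeat protein with a SOCS box, the adaptor of a cullin-5 ubiquitin ligase that directs filamins to degradation, and lies on the minus strand at chr12:103321142-103356001. After IFN-gamma it stood at 0.749 and 0.546 CPM with sgRNA1, 0.913 and 1.37 CPM with sgRNA2, and 23.2 and 21.3 CPM in control. In vehicle it stood at 3.07 and 2.17 CPM with sgRNA1, 7.67 and 4.88 CPM with sgRNA2, and 4.80 and 4.35 CPM in control. The direction of its IFN-gamma response differed between the lines, as every guide library was lower than in vehicle and every control library higher. With sgRNA1 and sgRNA2 the log2 fold changes were -2.01 and -2.42, which is 4.04-fold and 5.36-fold lower. Control had a log2 fold change of 2.28 ± 0.19 (SE), or 4.85-fold (edgeR adjusted p = 4.9e-09). With IFN-gamma, the log2 fold changes of guide cells against control were -5.08 (sgRNA1) and -4.24 (sgRNA2). In guide cells with IFN-gamma, Sectm1a and Pigr thus stood above their own vehicle level and Asb2 stood below it.

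Asb2 was the gene whose promoter window held the C/EBP letters, and its promoter at the upstream start is shown for that match (chr12:103356002-103356251, minus strand, RefSeq on GRCm38.p6). Capitals mark the match, which is on the opposite strand at -241 from the start.
Asb2 promoter: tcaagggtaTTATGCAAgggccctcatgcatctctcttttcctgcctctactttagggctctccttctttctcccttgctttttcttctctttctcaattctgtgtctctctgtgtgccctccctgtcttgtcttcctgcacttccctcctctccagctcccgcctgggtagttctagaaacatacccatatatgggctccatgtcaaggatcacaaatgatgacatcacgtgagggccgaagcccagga
C/EBP letters were in 1 of the 9 windows of 7 of the genes and in 10.8% of all windows. The composite C/EBP and ATF letters, in 0.895% of all windows, and the interferon-stimulated response element, in 3.44%, were in none of the 9. The remaining matches were IRF cores before both annotated starts of Dmp1, at -165 and -191 from them. Windows of Aqp1, Dmpk, Add2 and Ptprz1 held none of these letters, which says nothing of binding elsewhere. Sectm1a had no window.

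Ptprz1 encodes a receptor-type tyrosine phosphatase best known from glia, whose ligands include pleiotrophin and midkine, and lies on the plus strand at chr6:22875502-23052916. After IFN-gamma it had 5 and 1 counts with sgRNA1, 2 and 7 with sgRNA2, and 77 and 91 in control. In vehicle it had 0 and 4 counts with sgRNA1, 1 and 3 with sgRNA2, and 46 and 32 in control. All 8 guide libraries lay below all 4 control libraries, with either treatment. In guide cells the ratio of IFN-gamma over vehicle was 1.32 with sgRNA1 (95% counting interval 0.313 to 6.35) and 1.88 with sgRNA2 (0.526 to 8.37). Control stood at 4.2 ± 0.675 CPM after IFN-gamma and at 2.03 ± 0.494 CPM in vehicle, a log2 fold change of 1.05 ± 0.41 (edgeR adjusted p = 0.0294). That call in control was the least certain of the 4. The adjusted p was 0.0585 with DESeq2 and 0.16 with both guide lines as 1 joint group. It was 0.176 without the second control vehicle library, and 0.0555 and 0.167 without the first and the second control library with IFN-gamma. The control fold of 2.07 lay within both counting intervals of the guides.

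The Ptprz1 promoter is shown as that of the gene with the largest fall in vehicle among the 8 (chr6:22875252-22875501, plus strand, RefSeq on GRCm38.p6). It was rich in G and C, at 71.6% of the 250 bases before the start, and its window held none of the motifs.
Ptprz1 promoter: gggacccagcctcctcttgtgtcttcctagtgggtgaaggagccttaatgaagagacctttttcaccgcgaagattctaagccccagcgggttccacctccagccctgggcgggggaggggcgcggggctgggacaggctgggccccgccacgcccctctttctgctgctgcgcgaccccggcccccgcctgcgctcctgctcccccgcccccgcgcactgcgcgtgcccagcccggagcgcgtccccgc

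Aqp1 encodes a water channel known from red cells, kidney tubules and capillary endothelium, and lies on the plus strand at chr6:55336432-55348555. After IFN-gamma it stood at 1.83 and 1.34 CPM with sgRNA1, 2.63 and 1.49 CPM with sgRNA2, and 25.6 and 25.4 CPM in control. In vehicle it stood at 9.86 and 8.27 CPM with sgRNA1, 8.76 and 7.77 CPM with sgRNA2, and 23.0 and 24.5 CPM in control. Guide cells were below control already in vehicle and lower again after IFN-gamma, with log2 fold changes of -2.51 for sgRNA1 and -2.05 for sgRNA2 against their own vehicle libraries. The control level was flat, with a log2 fold change of 0.10 ± 0.14 after IFN-gamma (edgeR adjusted p = 0.517; ratio 1.07, 95% counting interval 0.981 to 1.18). After IFN-gamma the log2 fold changes against control were -4.00 and -3.67. Its promoter is shown as that of a gene lower in both treatments with no response in control (chr6:55336049-55336298, plus strand, before the RefSeq start, on GRCm38.p6).
Aqp1 promoter: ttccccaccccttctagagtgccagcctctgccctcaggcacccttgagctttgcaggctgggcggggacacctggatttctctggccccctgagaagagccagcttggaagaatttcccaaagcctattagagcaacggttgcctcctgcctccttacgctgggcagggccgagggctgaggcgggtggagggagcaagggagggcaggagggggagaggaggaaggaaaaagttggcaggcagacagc

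Dmpk encodes a serine and threonine kinase of muscle, and in humans an expanded repeat in this gene causes a form of myotonic dystrophy. It lies on the plus strand at chr7:19083849-19093821. After IFN-gamma it stood at 3.70 and 2.83 CPM with sgRNA1, 2.68 and 3.26 CPM with sgRNA2, and 29.6 and 29.0 CPM in control. In vehicle it stood at 7.09 and 8.14 CPM with sgRNA1, 19.8 and 17 CPM with sgRNA2, and 26.2 and 26.1 CPM in control. Guide libraries lay below control in both treatments, and with IFN-gamma both guides reached nearly the same level. IFN-gamma over vehicle gave log2 fold changes of -1.21 with sgRNA1 and -2.62 with sgRNA2, and 0.16 ± 0.11 in control (edgeR adjusted p = 0.199). With IFN-gamma, guide cells against control had -3.16 (sgRNA1) and -3.28 (sgRNA2).

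Add2 encodes beta-adducin, which caps actin filaments and joins them to spectrin beneath the membrane, and is best known from red cells and brain. It lies on the plus strand at chr6:86028681-86124409. After IFN-gamma it had 0 and 2 counts with sgRNA1, 4 and 7 with sgRNA2, and 38 and 40 in control. In vehicle it had 24 and 29 counts with sgRNA1, 85 and 79 with sgRNA2, and 30 and 29 in control. Add2 was thus highest with sgRNA2 in vehicle and nearly lost with either guide after IFN-gamma. Counts after IFN-gamma were lower than in vehicle by a ratio of 30.2 with sgRNA1 (95% counting interval 7.95 to 256) and 17.8 with sgRNA2 (9.70 to 36.4). In control the log2 fold change with IFN-gamma was 0.34 ± 0.33 (edgeR adjusted p = 0.378). Guide counts with IFN-gamma were lower than control counts by a ratio of 40.3 with sgRNA1 (10.8 to 339) and 7.79 with sgRNA2 (4.12 to 16.2). Gm44089, an annotated gene on the opposite strand, overlaps Add2, and without strand information their reads cannot be told apart. It was highest with sgRNA2 in vehicle as well, at 1.11 CPM, and its part in the Add2 values was not tested.

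Dmp1 encodes an acidic phosphoprotein of bone and tooth matrix, and lies on the plus strand at chr5:104202613-104214102. After IFN-gamma it had 1 and 0 counts with sgRNA1, 1 and 1 with sgRNA2, and 11 and 18 in control. In vehicle it had 33 and 32 counts with sgRNA1, 40 and 42 with sgRNA2, and 45 and 54 in control. IFN-gamma libraries were low in every line, and lowest with the guides. With the guides, counts after IFN-gamma were lower than in vehicle by a ratio of 74.0 with sgRNA1 (95% counting interval 12.8 to 2970) and 49.0 with sgRNA2 (13.1 to 411). Control had a log2 fold change of -1.82 ± 0.38, which is 3.53-fold lower after IFN-gamma (edgeR adjusted p = 0.00031). Guide cells over control with IFN-gamma gave ratios of 0.0334 with sgRNA1 (0.000817 to 0.201) and 0.0628 with sgRNA2 (0.00726 to 0.248). The 4 osteoblast and osteocyte markers listed gave no value and were not used here.

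**Figure D2:**
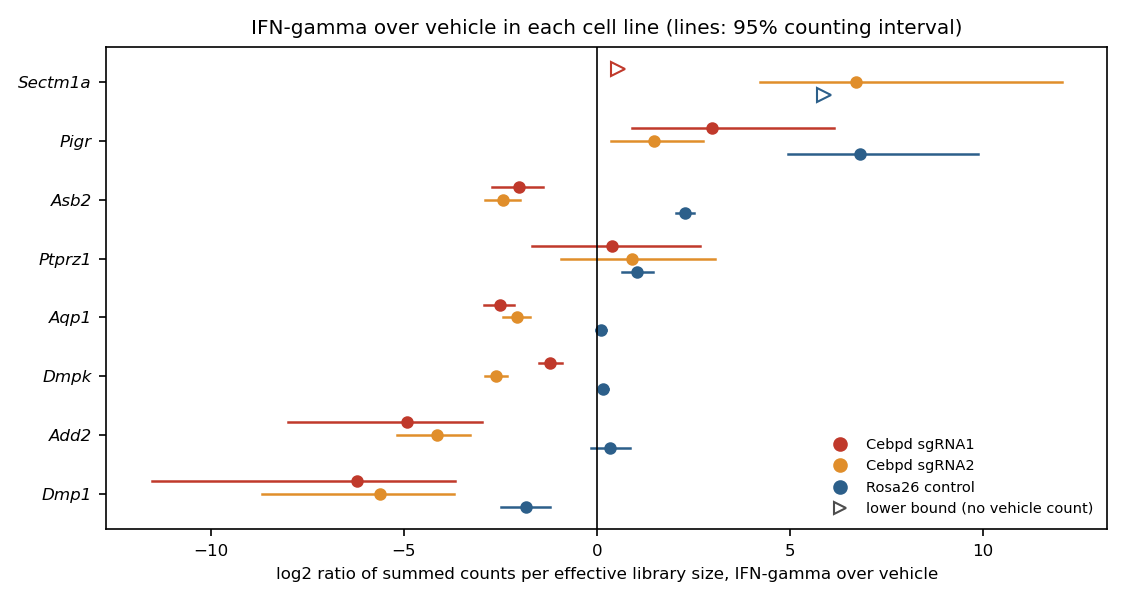
IFN-gamma over vehicle within each line, as the log2 ratio of summed counts per effective library size, with 95% counting intervals as lines and open triangles as lower bounds where vehicle had no count. Sectm1a had at most 1 vehicle count in a line, so its symbols do not rank the lines. Asb2 is the gene with control right of 0 and both guides left of 0, while Aqp1, Dmpk and Add2 have control near 0 and both guides left of it.

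Over the lines, the 8 genes had 4 patterns. Sectm1a and Pigr were near 0 in all vehicle groups and had small levels in guide cells and high levels in control with IFN-gamma. Asb2 had opposite directions in guide and control cells. Ptprz1 was low in guide cells with either treatment. Aqp1, Dmpk, Add2 and Dmp1 had their lowest levels in guide cells with IFN-gamma, with control flat or, for Dmp1, lower as well. In 5 of 8 genes both IFN-gamma libraries lay below both vehicle libraries of the same guide line, with each guide, where 40.4% (sgRNA1) and 39.7% (sgRNA2) of all tested genes did. In 2 of 8, Pigr and Sectm1a, they lay above, as did 40.4% (sgRNA1) and 38.6% (sgRNA2) of all tested genes. In 6 of 8 genes, all but Pigr and Sectm1a, they lay below both vehicle libraries of control, as did 41.1% (sgRNA1) and 40.4% (sgRNA2) of all tested genes. The genes were chosen as low in these IFN-gamma libraries, so nothing is read from the counts. Per kilobase of exon, control levels with IFN-gamma ran from 9.71 CPM for Aqp1, 6.77 for Dmpk, 6.28 for Asb2 and 5.40 for Sectm1a to 1.46 for Pigr, 0.295 for Ptprz1, 0.264 for Dmp1 and 0.192 for Add2.

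The vehicle libraries did not enter the choice of the genes, so the difference between guides and control was tested there. They come from the same 3 cell lines, so the comparison uses other libraries but is not independent of the lines. With both guides averaged, 3 of 8 genes were called lower, Aqp1, Dmpk and Ptprz1, where 33.7% of all tested genes were. Add2 was called higher, as were 34.0% of all tested genes. A share of 3 in 8 is near that background. The median log2 fold change of the 8 genes was -0.27, against 0.03 over all tested genes, and it was -3.94 in IFN-gamma, where the choice was made, against 0.02.

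Aqp1 fell in vehicle by 1.45 on the log2 scale (SE 0.12, edgeR adjusted p = 9.36e-09), which is 2.74-fold, in 4 of 4 guide libraries. Dmpk fell by 1.14 (SE 0.10, adjusted p = 1.35e-08), or 2.21-fold, again in all 4. Ptprz1 had -4.13 ± 0.55 (adjusted p = 2.72e-06), with 4 counts in total for each guide against 78 in control. As ratios with counting error, that is 18.5-fold lower with sgRNA1 (95% counting interval 6.94 to 69.5) and 18.7-fold lower with sgRNA2 (7.03 to 70.5). With so few counts its fitted value moved to -6.25 without the second sgRNA1 vehicle library and to -3.59 without the first, and it stayed called in each case. Ptprz1 was the gene for which vehicle already carried nearly the whole difference, and Aqp1 and Dmpk carried part of it.

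Asb2 did not pass with the guides averaged (-0.16 ± 0.19, adjusted p = 0.469), nor did Dmp1 (-0.37 ± 0.29, adjusted p = 0.265). Add2 was higher in vehicle by 0.73 ± 0.29 (adjusted p = 0.0352), through sgRNA2 libraries at 4.44 ± 0.053 CPM, while sgRNA1 stood at 1.48 ± 0.383 CPM and control at 1.53 ± 0.0206 CPM. That call did not hold with DESeq2 (adjusted p = 0.0789) or a joint guide group (0.245). It was lost without the first or second control vehicle library (0.121 and 0.132), the second sgRNA1 library (0.118), or the first or second sgRNA2 library (0.0679 and 0.0715). Pigr and Sectm1a had too few vehicle counts for a comparison of the averaged guides.

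**Figure D3:**
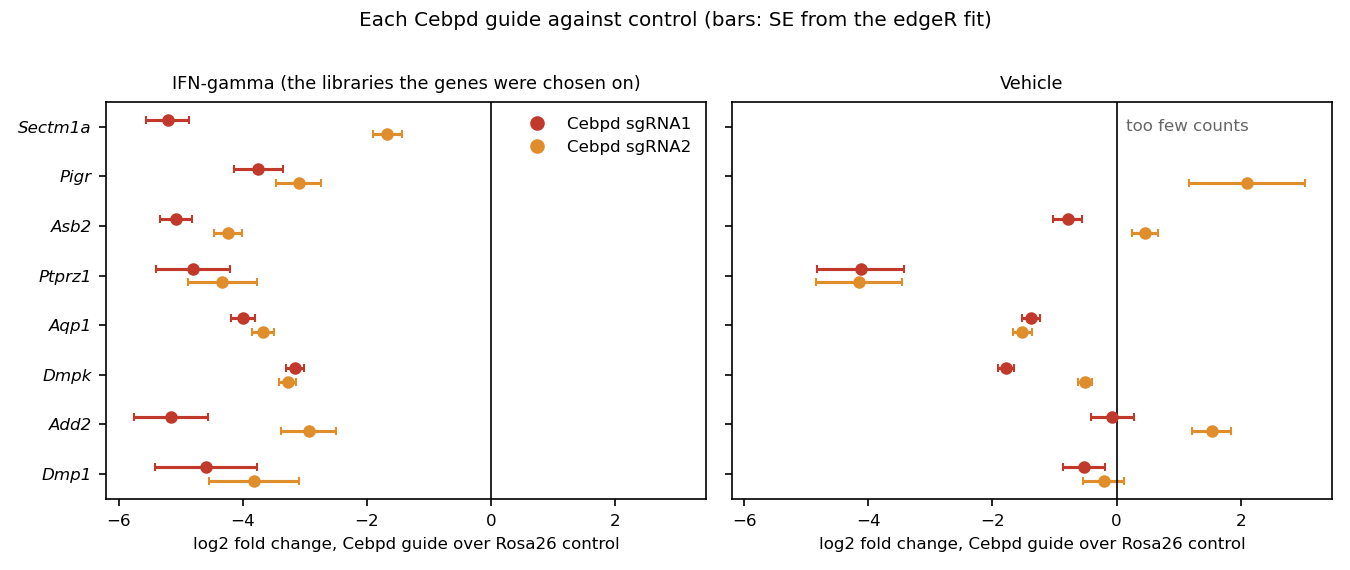
Log2 fold change of each Cebpd guide over Rosa26 control with IFN-gamma (left, the libraries on which the genes were chosen, shown as a description) and in vehicle (right), with SE from the edgeR fit as bars. With IFN-gamma all 16 points lie left of 0, while in vehicle only Aqp1, Dmpk and Ptprz1 have both guides left of 0 and called; Sectm1a, and Pigr with sgRNA1, had too few vehicle counts.

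The guides were not alike in vehicle. With sgRNA1, 4 of 8 genes were called lower, where 26.9% of all tested genes were, namely Aqp1, Dmpk, Ptprz1 and Asb2. With sgRNA2, 3 of 8 were called lower and 1 higher, against 35.0% and 38.3% of all tested genes. All 4 guide libraries lay below both control libraries in vehicle for 3 of 8 genes, Aqp1, Dmpk and Ptprz1, and for 27.8% of tested genes. After IFN-gamma, where the genes were chosen, they did so for 8 of 8 and for 31.1% of tested genes. By guide in vehicle, sgRNA1 libraries lay below both control libraries in 5 of 8 genes and in 36.6% of tested genes. The sgRNA2 libraries lay below in 3 of 8 and above in 3 of 8, and in 40.2% and 45.2% of tested genes. Tested directly, sgRNA2 and sgRNA1 differed in vehicle for 3 of 8 genes, where 62.3% of all tested genes differed. Asb2 was higher with sgRNA2 by 1.25 ± 0.23 (adjusted p = 0.000135), Dmpk by 1.28 ± 0.13 (adjusted p = 1.32e-07) and Add2 by 1.60 ± 0.32 (adjusted p = 0.000287).

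For Asb2, sgRNA1 was below control in vehicle by -0.79 ± 0.24 (adjusted p = 0.0102), and sgRNA2 was not called (0.46 ± 0.21, adjusted p = 0.0582). The sgRNA1 call was lost without the first control vehicle library (adjusted p = 0.0619) or the second sgRNA1 vehicle library (0.107). For Dmpk, sgRNA1 had -1.78 ± 0.13 (adjusted p = 3.56e-09) and sgRNA2 -0.51 ± 0.12 (adjusted p = 0.00072). For Add2, sgRNA1 had -0.07 ± 0.35 (adjusted p = 0.893) and sgRNA2 1.53 ± 0.31 (adjusted p = 0.000279). For Aqp1 the difference between guides was -0.14 ± 0.17 (adjusted p = 0.493), with -1.38 ± 0.15 for sgRNA1 and -1.52 ± 0.15 for sgRNA2. The gene with the largest difference between guides in IFN-gamma, Sectm1a, could not be compared in vehicle.

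Ranked by the smaller of the 2 falls in IFN-gamma over 13601 genes, the members did not form the top of the list. Ptprz1 was at rank 1, Asb2 at 2, Dmp1 at 4, Aqp1 at 7, Dmpk at 12, Pigr at 13, Add2 at 15 and Sectm1a at 77, with 69 other genes above Sectm1a. Around Sectm1a (-1.67), the smaller fall was -1.69 for Lrrc26, -1.68 for Abcc3 and -1.67 for Abhd11os, and just below it -1.66 for Cntn1, -1.66 for Gm15406 and -1.64 for Ip6k3. A log2 fold change of -1 or lower with each guide was reached after IFN-gamma by 8 of 8 genes, as chosen, and 2.53% of all tested genes. In vehicle it was reached by 2 of 8, Aqp1 and Ptprz1, and 0.846% of all tested genes.

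Genes with the most similar pattern were sought by Pearson's r of log2(CPM + 0.5) over the 12 libraries, among 11936 genes that averaged 1 CPM or more. The 12 libraries share their groups, so a high r is a description only. Rbck1, a subunit of the linear ubiquitin ligase, came closest to Sectm1a (r = 0.99), and its near copy Sectm1b was next (0.97). Zcchc24 (0.99) and Pik3r5 (0.98), a regulatory subunit of phosphoinositide 3-kinase, were closest to Pigr. Ttyh3 (0.99) and Lgr6 (0.98), a receptor of R-spondins, were closest to Asb2, with Ttyh3 at 39.4 and 41.9 CPM in sgRNA1 and sgRNA2 cells with IFN-gamma and 94.6 CPM in control. Prom2, a prominin, was closest to Dmpk (0.98), at 6.94 and 8.48 CPM in sgRNA1 and sgRNA2 cells with IFN-gamma and 25.5 CPM in control. Plp2 and Usf2 were closest to Aqp1, Cpe and Hoxa3 to Add2, Cenpc1 and Insig1 to Dmp1, and Epn1 and Tlk1 to Ptprz1, each with r = 0.98. Among the 8 genes themselves, Aqp1 with Dmpk (r = 0.94) and Pigr with Sectm1a (0.93) were the most alike pairs, and Sectm1a with Dmp1 (-0.49) the least.

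The nearest genes on the chromosome were compared as well. Up to 2 counted genes on each side gave 32 neighbours, 29 of them tested. With IFN-gamma and both guides averaged, 13 were called lower, 6 higher and 10 were not called, where 33.4% and 32.5% of all tested genes were lower and higher. A log2 fold change of -1 or lower with each guide was reached by 3 of the 29, and by 2.53% of all tested genes. Sectm1b was at -3.32 with sgRNA1 and -2.09 with sgRNA2. Its counts after IFN-gamma were 12 and 15 with sgRNA1, 33 and 34 with sgRNA2, and 153 and 111 in control, with no vehicle count in control, so it rose at least 42.0-fold there. Dmwd, which ends 1073 bases before Dmpk, was at -1.12 and -1.03, and Tgfa, a growth factor gene 70.8 kilobases from Add2, at -1.09 and -1.22. Six5, a homeobox gene 773 bases behind Dmpk, had -1.09 with the guides averaged (adjusted p = 2.85e-06). With the guides averaged, none of the 29 neighbours had a fall as large as that of the gene beside it, but with sgRNA2 alone Sectm1b (-2.09) stood lower against control than Sectm1a (-1.67).

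**Figure D4:**
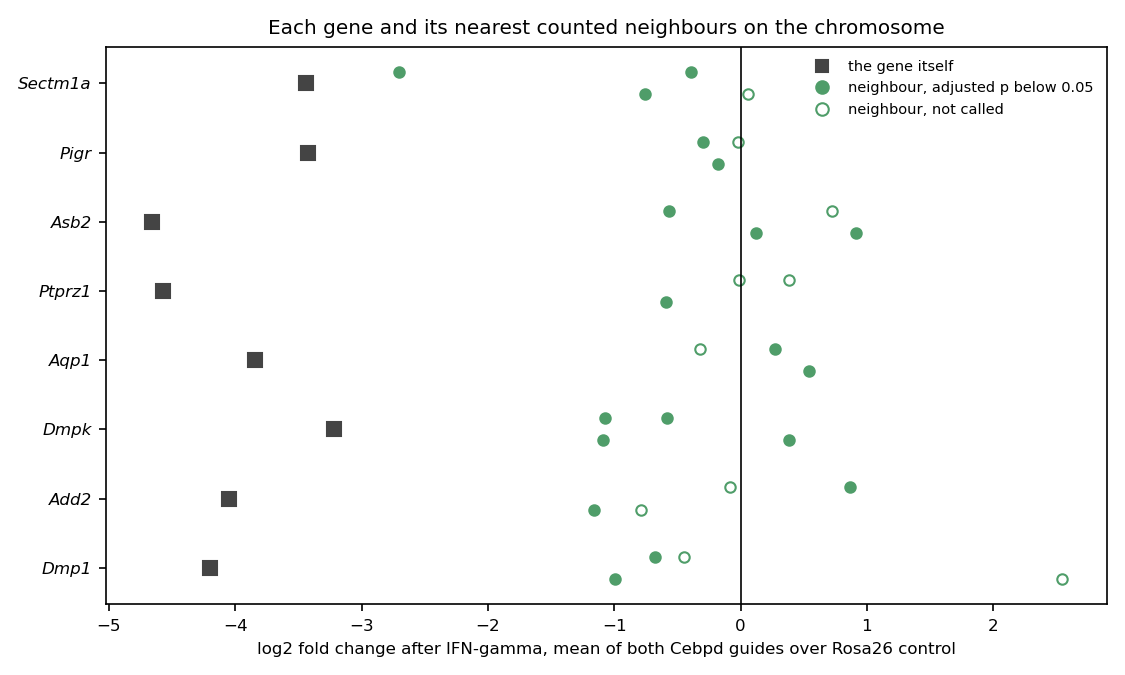
Log2 fold change of both guides averaged over control with IFN-gamma for each of the 8 genes (squares) and its nearest counted neighbours (circles, filled where the edgeR adjusted p was below 0.05). Sectm1b, beside Sectm1a, is the circle nearest to a square, and the other neighbours lie right of -1.2.

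Relatives and partners of the 8 genes were followed as lists of 107 genes, 68 of them tested. With IFN-gamma and both guides averaged, 46 of 68 were lower, 13 higher and 9 not called, where 33.4% of all tested genes were lower and 32.5% higher. In vehicle 21 were lower, 28 higher and 19 not called, which is near the 33.7% and 34.0% of all tested genes. In control, IFN-gamma raised 52 and lowered 9, where it raised 36.4% and lowered 34.1% of all tested genes. The lists were drawn up around the chosen genes and include the IFN-gamma targets, which make up 20 of the 68.

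All 20 genes of IFN-gamma signalling and its targets rose in control with IFN-gamma (median 7.41, against 0.01 over all tested genes). In IFN-gamma 19 of the 20 were lower with the guides (33.4% of all tested genes), with a median of -0.58. In vehicle 14 were higher and 1 lower (34.0% and 33.7% of all tested genes). Irf1 had -0.47 ± 0.04 with IFN-gamma (adjusted p = 8.14e-09) and 1.68 ± 0.06 in vehicle (4.96e-14). Of 4 tested C/EBP genes, 2 were lower and 2 higher with IFN-gamma (33.4% and 32.5% of all tested genes). In vehicle 3 of them were higher and 1 lower (34.0% and 33.7%).

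Among the kinases related to Dmpk, all 6 tested were lower with the guides in IFN-gamma (median -0.44; 33.4% of all tested genes) and all 6 rose in control with IFN-gamma (36.4% of all tested genes). In vehicle 4 of the 6 were lower and 1 higher (median -0.45), against 33.7% and 34.0% of all tested genes. Rock2, a kinase of actomyosin contraction, had -0.56 ± 0.04 in IFN-gamma (edgeR adjusted p = 1.44e-09). In vehicle Rock2 was not called with the guides averaged (-0.02 ± 0.04, edgeR adjusted p = 0.651). By guide it was lower with sgRNA1 (-0.17 ± 0.05, edgeR adjusted p = 0.00728) and higher with sgRNA2 (0.13 ± 0.05, edgeR adjusted p = 0.0282). In the adducin and membrane skeleton list, 10 of 13 were lower and 1, Sptb, higher in IFN-gamma, against the same 33.4% and 32.5%. Add1 and Add3, the other adducins, had -0.45 ± 0.04 (adjusted p = 4.3e-09) and -0.32 ± 0.06 (0.000126).

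All 3 tested relatives of Dmp1, matrix proteins and their processing enzymes, were lower with the guides in IFN-gamma, as were 33.4% of all tested genes. Phex, a peptidase of bone mineral metabolism, had -2.33 ± 0.15 (adjusted p = 2.61e-10), and Spp1, which encodes osteopontin and lies beside Dmp1, -0.99 ± 0.03 (4.03e-14). In vehicle Spp1 was instead higher by 0.67 ± 0.03 (adjusted p = 8.48e-12). Of 3 tested ligands and relatives of Ptprz1, Cntn1, a neuronal adhesion protein that binds it, was lower in IFN-gamma by -1.72 ± 0.26 (adjusted p = 1.05e-05), and the other 2 were not called. Of 4 aquaporins, Aqp3 and Aqp5 were lower, by -1.24 ± 0.17 and -0.63 ± 0.09, and the other 2 were not called. The 33.4% of all tested genes that were lower is the background of these 2 lists as well. With the guides averaged, Aqp3 was higher in vehicle by 1.81 ± 0.22 (edgeR adjusted p = 8.88e-07), the reverse of Aqp1. By guide, Aqp3 was higher with sgRNA2 (2.99 ± 0.22, edgeR adjusted p = 7.91e-10) and not called with sgRNA1 (0.62 ± 0.27, edgeR adjusted p = 0.0594).

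Most ASB proteins and parts of their ubiquitin ligase moved opposite to Asb2. Of 14 tested, 10 were higher and 2 lower with the guides in IFN-gamma (median 0.36), where 32.5% and 33.4% of all tested genes were. In control with IFN-gamma 4 rose and 7 fell, where 36.4% and 34.1% of all tested genes did. Elob and Cul5, parts of the ligase that ASB proteins join, had 0.41 ± 0.04 (adjusted p = 2.05e-07) and 0.16 ± 0.06 (0.0227). The single tested relative of Sectm1a was Sectm1b, described above, and none of the immunoglobulin receptors and joining chain genes of the Pigr list had enough reads to be tested.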

How the data were processed

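Gene counts of 12 libraries were analysed. The values are raw counts of reads per gene, as deposited by the authors. STAR 2.4.0, HTSeq, DESeq2 1.10 and mm10 appear in the submitters' processing notes, not tied to steps, and the annotation and strand setting used for counting are not stated there. Per the labels, libraries were made with an Illumina TruSeq RNA kit, which does not mark strand. Samples were grouped by titles and treatment labels, and no column lacked a sample. Of 16283 genes, 15941 matched GENCODE vM21 (GRCm38) by name, 250 by synonym and 92 not.

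Counts were fitted with edgeR 4.0.16 (R 4.3.3) in a model of 6 groups, with TMM scaling, filterByExpr (minimum count 10, minimum total 15; 13601 genes, 99.965% of counts) and the quasi-likelihood test with Benjamini-Hochberg adjustment over all tested genes, called at an adjusted p below 0.05. The fit had 6 residual degrees of freedom and a common biological coefficient of variation of 4.67%. Each SE was derived from the F statistic, so it restates the test. The script was tested on simulated data. Against groups with no count, folds are bounds at a floor of 3 counts per library. With 1 to 3 counts in a library, ratios carry exact 95% counting intervals. Both cover counting error only. Replicate libraries differed by more than sampling noise (chi-square per degree of freedom 2.71 to 6.95).

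The 8 genes, the lists of relatives and the markers were chosen with earlier results of these data known. Named beyond the 8 were Cebpd, the 2 genes most like each member by Pearson's r, the nearest neighbours that reached a log2 fold change of -1 with each guide, and examples from each list. Six5, Phex and the further list examples were picked after their values were seen. Promoter windows came from RefSeq on GRCm38.p6 for 7 of the 8 genes. Alternatives were DESeq2 1.42.0, RLE size factors, upper quartile scaling, no filter, a joint guide group, a replicate block, subsets of the libraries and leaving out each library.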

Additional observations from a re-analysis of the deposited data

Results flagged for a closer look

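Asb2, Dmpk and Add2 stood out because sgRNA1 and sgRNA2, which target the same gene, differed in vehicle in a direct test of one guide against the other. The log2 fold change of sgRNA2 over sgRNA1 was 1.25 for Asb2 (edgeR's quasi-likelihood test, adjusted p = 0.000135), 1.28 for Dmpk (adjusted p = 1.32e-07) and 1.60 for Add2 (adjusted p = 0.000287). In each case both sgRNA2 libraries lay above both sgRNA1 libraries. For Asb2, sgRNA1 lay below control and sgRNA2 was not called against it. For Add2, sgRNA2 lay above control and sgRNA1 near it, and for Dmpk both lay below it. As 62.3% of all tested genes differed between the guides in vehicle, the count of 3 in 8 is below that background. Sums of leukocyte, fibroblast and glial markers were also higher with sgRNA2 than with sgRNA1 in vehicle. Leukocyte markers (3 genes) stood at 7.88 to 9.58 against 2.23 to 3.92 CPM. Fibroblast markers (2 genes) stood at 32.0 to 32.2 against 18.8 to 20.6 CPM. The glial value, from 1 gene, was 1.93 to 2.49 against 0.965 to 1.11 CPM. In control the values, in the same order, were 1.08 to 1.1, 14 to 15.2 and 1.03 to 1.52 CPM. Endothelial markers went the other way in vehicle, at 0.805 to 1.27 CPM with sgRNA1 and 0.454 to 0.466 CPM with sgRNA2. Ranges of epithelial and of erythroid markers overlapped between the guides in vehicle. The part of these markers in the differences between guides was not tested.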

How the results depend on the processing

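Leaving out 1 library at a time gave 3 genes lower with the guides in vehicle in each case, 3 to 4 lower with sgRNA1, 3 lower with sgRNA2, 3 that differed between guides and 3 to 4 induced in control. With upper quartile scaling 3 were induced, as the log2 fold change of Ptprz1 was then below 1. Of 67 tested relatives besides Cebpd, 48 were called with the guides in vehicle, where 33.7% of all tested genes were lower and 34.0% higher. The count was 44 to 49 with 1 library left out and 21 with both guide lines as 1 joint group. The shares of all tested genes are those of the model of 6 groups. None is given for the joint group, so the 21 has no background of its own and is not read as a result about the relatives. The cause of that drop was not tested. Add2 with sgRNA1 in vehicle, never called, changed sign to 0.0374 with upper quartile scaling and ranged from -0.344 to 0.188 with 1 library left out. The uncalled difference of Aqp1 between guides ranged from -0.261 to 0.00168. Of the other values of single genes, 14 lost their call and 6 gained one, in Add2, Asb2, Ptprz1 and Pigr, and 585 kept direction and call. Under upper quartile scaling the median log2 fold change over all genes in vehicle was 0.169, against 0.0337 with TMM, and 62.1% of calls were higher, against 50.2%. Replicate numbers did not pair the libraries, with correlations of deviations from -0.145 to 0.0579 over 15 pairs of groups. With a replicate block, 3 genes remained lower with the guides in vehicle, 4 were lower with sgRNA1 and 4 were induced, and no call of the 8 genes changed. Low counts limit Sectm1a, Pigr, Ptprz1, Dmp1 and Add2, where 1 library can move a fold by several times.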
